A study of Sus scrofa with 8 samples.

Results

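ISG15 is a small ubiquitin-like protein that is joined to lysines of other proteins, a modification known as ISGylation, and its genes are classical interferon targets. UBA7 activates ISG15, UBE2L6 is the conjugating enzyme, HERC5 and HERC6 are ligases that pass it to substrates, and USP18 removes it again. USP18 also binds the interferon receptor chain IFNAR2 and dampens type I interferon signaling, so the same set of genes holds the machinery and its brake. In mice HERC6 is the main ligase, whereas in humans this role is held by HERC5. The ISG15 conjugation system was taken here as these 6 genes, chosen by symbol, out of 24358 identifiers in the count table, and all 6 were found.

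The study asked what the transcription factor IRF-1 does in porcine induced pluripotent stem cells (piPSCs). The DOX-hLIF-2i piPSCs were derived from porcine embryonic fibroblasts with an OCT4-tdTomato reporter, using doxycycline-inducible reprogramming factors. By the study's methods they were kept with doxycycline, human and porcine LIF and a pair of kinase inhibitors. IRF-1 overexpressing cells (replicates 1 and 3) carried a piggyBac vector with IRF1-Flag under the ubiquitous CAG promoter, and control cells (replicates 6 and 8) carried the PB-CAG-Flag vector without the insert. Both were selected with puromycin, so vector and selection were shared and the insert was the stated difference. The labels name LCDMV as the culture system and describe removal of feeder cells by a short plating step. The study's methods do not mention LCDMV, so the medium of these libraries is not settled here. The labels give overexpression of IRF-1 as the genotype of all 4 libraries. The groups used here follow the study's own assignment of these library names. The labels do not say that replicates were separate cultures, so p-values measure the spread between these libraries, which may be technical.

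The overexpressing libraries held 24923319 (replicate 1) and 20858333 (replicate 3) counted reads. The control libraries held 15925429 (replicate 6) and 17097669 (replicate 8). Levels are given as CPM (counts scaled to a common library size) after scaling by TMM factors, and 3 counts, taken as the detection floor, were worth between 0.121 and 0.192 CPM. IRF1 itself, which checks the assignment, was counted 8206 and 5485 times in the overexpressing libraries and 55 and 56 times in the controls. Its log2 fold change was 6.46 (± 0.21 standard error, SE, with adjusted p = 3.65e-05 in edgeR's quasi-likelihood test, Benjamini-Hochberg), and these counts do not separate introduced from endogenous transcripts.

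Of the 6 members, 4 were higher in the IRF-1 overexpressing cells, namely HERC6, ISG15, USP18 and UBE2L6. Calls required that the adjusted p was under 0.05 and that the log2 fold change was 1 or more in either direction, and 8.61% of the 13250 tested genes were called higher by this rule. No member was called lower by edgeR, none had an unadjusted p under 0.05 in that direction, and DESeq2 and limma-voom called 0 lower, while 10.6% of tested genes were called lower by edgeR. Without a minimum fold change the same count of 4 members was higher, beside 13.9% of tested genes. HERC5 was tested and not called, and UBA7 had too few counts to be tested. In 5 members both overexpressing libraries lay above both controls, which was also so for 34.8% of tested genes. The median log2 fold change of the 5 tested members was 1.29, and that of all tested genes was -0.002. In cultures sequenced in bulk, fewer cells expressing a gene and less RNA per cell cannot be told apart. With 2 libraries against 2, an exact two-sided permutation test of a single gene gives 0.333 at the least, and the adjusted p values draw on variation pooled over genes by edgeR.

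**Figure D1:**
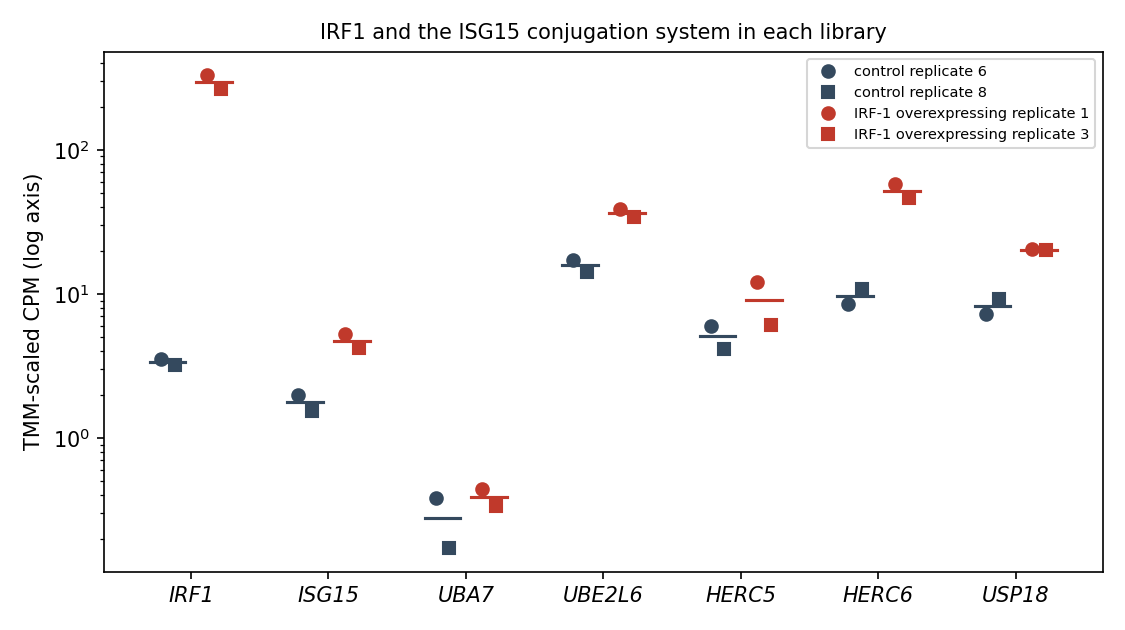
Level of IRF1 and the 6 members in each library, in TMM-scaled CPM on a log axis; points are libraries, and horizontal lines are group means of 2 libraries. Both overexpressing libraries lie above both controls for every gene drawn except UBA7, where the groups overlap.

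The modifier ISG15 (ENSSSCG00000040575) lies on the plus strand of chromosome 6 of Sscrofa11.1, from 63362889 to 63365398, and its exons share no base with another gene of the table. Its exons held 130 and 88 counts in overexpressing replicates 1 and 3 and 31 and 27 counts in control replicates 6 and 8. These correspond to 5.23 and 4.23 CPM in the overexpressing cells and 1.98 and 1.54 CPM in the controls. The groups did not overlap, and the lower overexpressing library was above the higher control. The mean was 4.73 ± 0.709 CPM (SD, n = 2) against 1.76 ± 0.311 CPM (SD, n = 2). Its log2 fold change was 1.43 with a standard error of 0.37 (adjusted p = 0.0234 in edgeR's quasi-likelihood test, Benjamini-Hochberg). Among the called members, ISG15 was the 1 whose call was lost when single libraries were left out. Without overexpressing replicate 1 its log2 fold change was 1.28 (adjusted p = 0.161 in the same edgeR test). Without overexpressing replicate 3 it was 1.57 (adjusted p = 0.0562 by the same edgeR test), and without control replicate 8 it was 1.26 (adjusted p = 0.0568 by the same edgeR test). Over 12 alternatives with this call rule the adjusted p of ISG15 lay between 0.00402 and 0.161.

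USP18 (ENSSSCG00000000774), the protease that cleaves ISG15 from its substrates, lies on the plus strand of chromosome 5 from 70183279 to 70227984, with no shared exon base. Its level was 20.4 and 20.2 CPM in the overexpressing replicates 1 and 3, and 7.30 and 9.26 CPM in control replicates 6 and 8. The overexpressing libraries were nearly equal, and both stood above the controls, which differed more from each other. The log2 fold change was 1.29 with a standard error of 0.22 (adjusted p = 0.00488 in edgeR's quasi-likelihood test, Benjamini-Hochberg). It was called under all 12 alternatives with this call rule, between 1.13 and 1.48.

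UBE2L6 (ENSSSCG00000023379), the conjugating enzyme, lies on the plus strand of chromosome 2 from 13353854 to 13369332, and 17 of its 1582 exon bases are shared with a gene on the opposite strand. In the overexpressing libraries 960 and 716 reads were counted, or 38.6 and 34.4 CPM. In the controls it had 271 and 249 counts, or 17.3 and 14.2 CPM. The groups were well apart, and replicates of a group differed by much less than the groups did. Its log2 fold change was 1.21 with a standard error of 0.19 (adjusted p = 0.00319 in edgeR's quasi-likelihood test, Benjamini-Hochberg), and it was called under all 12 alternatives with this call rule, between 1.08 and 1.36.

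UBA7 (ENSSSCG00000011393), the activating enzyme, lies on the minus strand of chromosome 13 from 32322032 to 32341301. Only 11 and 7 reads were counted in overexpressing replicates 1 and 3 and 6 and 3 in control replicates 6 and 8. These values correspond to 0.443, 0.336, 0.384 and 0.172 CPM in the same order, and the groups overlapped. UBA7 did not pass the filter on low counts. When the filter was lowered to a total of 10 counts, its log2 fold change was 0.51 with a standard error of 0.79 (adjusted p = 0.677 in edgeR's quasi-likelihood test, Benjamini-Hochberg). With no filter the log2 fold change was 0.52, with an adjusted p of 0.741 in the same edgeR test.

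Most exon bases of the UBA7 model are shared with other gene models. Of its 7198 exon bases in the count table, 6026 are also exon bases of CDHR4 and 3256 of TRAIP, both on the same strand. Only 1010 bases belong to no other gene model. RefSeq places UBA7 between 32330536 and 32341300, and of the 1010 unshared bases 103 fall inside this span and 907 outside it. In the table as a whole, 92 named genes share every exon base with another gene, and 91 of them had a count of 0 in all 4 libraries, beside 8.62% of the 10765 named genes with no shared base. How much UBA7 RNA the cells held cannot be read from this count.

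**Figure D2:**
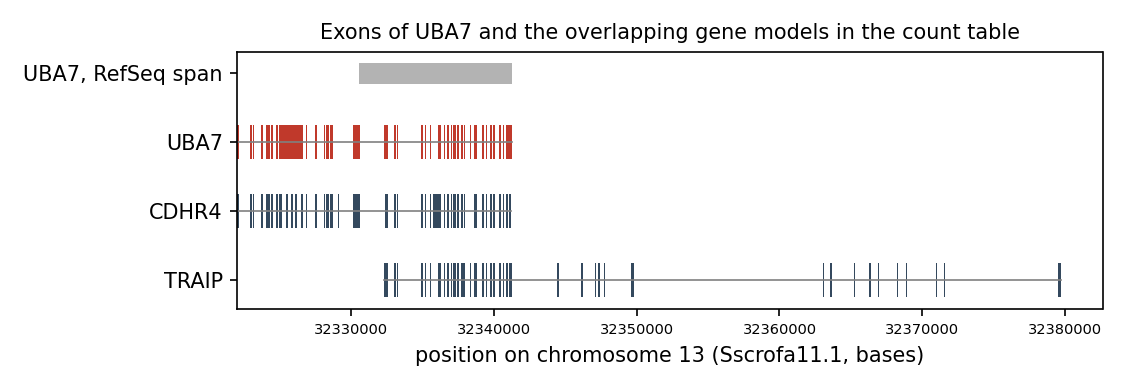
Exons (boxes) of UBA7, CDHR4 and TRAIP as the count table gives them, along chromosome 13 of Sscrofa11.1 in bases, with the RefSeq span of UBA7 in grey; an unnamed model on the opposite strand is not drawn. Most exons of the UBA7 model lie on exons of CDHR4 or TRAIP, and 1010 of its 7198 exon bases are unshared.

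HERC6 (ENSSSCG00000021712) and HERC5 (ENSSSCG00000030548) are adjacent ligase genes on the minus strand of chromosome 8. HERC5 runs from 130529324 to 130590841 and HERC6 from 130594937 to 130665145, with 4095 bases between them. HERC6 had 1435 and 967 counts in the overexpressing replicates and 132 and 188 counts in the controls. Its level was 57.8 and 46.5 CPM in the overexpressing cells and 8.45 and 10.7 CPM in the control cells, so the groups were far apart. The log2 fold change was 2.44 with a standard error of 0.21 (adjusted p = 0.000422 in edgeR's quasi-likelihood test, Benjamini-Hochberg), which is 5.42-fold. It was called under all 12 alternatives with this call rule, between 2.28 and 2.63. With glmTreat, which asks whether a change exceeds the fold limit, HERC6 was the 1 member called (adjusted p = 0.00194 in edgeR's glmTreat, Benjamini-Hochberg). USP18 had an adjusted p of 0.25 and ISG15 and UBE2L6 of 0.316 in edgeR's glmTreat.

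HERC5 had 299 and 127 counts in the overexpressing replicates 1 and 3 and 94 and 73 counts in control replicates 6 and 8. These correspond to 12.03 and 6.11 CPM in the overexpressing cells and 6.02 and 4.17 CPM in the controls. Overexpressing replicate 1 stood apart, while overexpressing replicate 3 was almost level with control replicate 6. The log2 fold change was 0.84 with a standard error of 0.39 (adjusted p = 0.151 in edgeR's quasi-likelihood test, Benjamini-Hochberg). Leaving out overexpressing replicate 1 gave 0.28 and leaving out overexpressing replicate 3 gave 1.25, and HERC5 was called under none of the 12 alternatives with this call rule. Of its 7888 exon bases, 691 are shared with other genes.

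Levels of different genes were compared per kilobase of exon. In the control cells UBE2L6 was highest at 9.98 ± 1.39 CPM per kilobase (SD, n = 2), followed by USP18 at 3.80 ± 0.639 and HERC6 at 2.10 ± 0.356. ISG15 at 0.837 ± 0.148 and HERC5 at 0.646 ± 0.165 CPM per kilobase came next. ISG15 was above HERC5 in each of the 4 libraries, although the ranges of these genes over the controls overlapped. In the overexpressing cells UBE2L6 was again highest at 23.1 ± 1.89 CPM per kilobase (SD, n = 2). HERC6 at 11.4 ± 1.74 and USP18 at 9.32 ± 0.0585 CPM per kilobase had changed places, and the lower HERC6 library (10.2) was above the higher USP18 library (9.36). ISG15 reached 2.24 ± 0.336 and HERC5 1.15 ± 0.531 CPM per kilobase. The modifier was thus lower per length than its conjugating enzyme and its protease in every library. The exon length of ISG15 in the table, 2108 bases, is longer than the whole span of 1011 bases that RefSeq gives, so its level per length may be understated. With that span as the length, tried after the data had been seen, ISG15 would be at 1.96 and 1.53 CPM per kilobase in control replicates 6 and 8, and its order against HERC6, at 1.85 and 2.35, would differ between these libraries. The levels of the 6 members summed to 134.5 and 111.8 CPM in the overexpressing replicates and to 41.5 and 40.1 CPM in the controls.

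Ratios between members within a library do not depend on how libraries were scaled. The ratio of HERC6 to HERC5 per length was 8.28 and 13.1 in the overexpressing replicates 1 and 3, and 2.42 and 4.44 in control replicates 6 and 8. The balance of these ligases was tilted further to HERC6 in both overexpressing libraries, with no overlap between groups (exact two-sided permutation p = 0.333, the smallest that 2 against 2 can give). The ratio of HERC6 to USP18 was 1.35 and 1.10 in the overexpressing cells and 0.551 and 0.552 in the controls, again without overlap. The ratio of USP18 to ISG15 was 3.77 and 4.62 in the overexpressing cells and 3.56 and 5.81 in the controls. For this pair of protease and modifier the groups overlapped. The ratio of UBE2L6 to ISG15 was 9.84 and 10.8 in the overexpressing cells and 11.7 and 12.3 in the controls. This was a small difference with no overlap (exact two-sided permutation p = 0.333). The control ratios rest on only 31 and 27 counts of ISG15.

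HERC1 to HERC4 encode related ubiquitin ligases, and none of them was called by edgeR, DESeq2 or limma-voom, while 3 had an unadjusted p under 0.05 in edgeR. HERC1 had a log2 fold change of 0.67 (± 0.20 SE, with adjusted p = 0.0405 in edgeR's quasi-likelihood test, Benjamini-Hochberg), short of the fold limit. HERC3, which lies on the same chromosome 62007 bases before HERC5, had a log2 fold change of 0.50 (± 0.14 SE, with adjusted p = 0.0339 in edgeR's quasi-likelihood test, Benjamini-Hochberg). Neither kept an adjusted p under 0.05 without overexpressing replicate 1 (0.280 for HERC1 and 0.244 for HERC3 from edgeR) or without control replicate 6 (0.0680 and 0.0623), and HERC3 also lost it without overexpressing replicate 3 (0.120). The ratio of HERC6 to HERC3 per length was 1.05 and 0.913 in the overexpressing replicates and 0.235 and 0.276 in the controls. The ratio of HERC5 to HERC3 was 0.127 and 0.0695 in the overexpressing cells and 0.0972 and 0.0622 in the controls, and here the groups overlapped. HERC2 was near 0 at 0.04 and changed sign with the library left out, and HERC4 was at -0.43 (adjusted p = 0.0642 in the same edgeR test). The activating enzymes of ubiquitin, UBA1 and UBA6, had log2 fold changes of 0.39 and 0.06 and were not called. UBE2L3, the closest relative of UBE2L6, had no named identifier in the table.

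The remaining ubiquitin-like systems were read beside the ISG15 system, using genes for ubiquitin, SUMO, NEDD8, UFM1, FAT10, ATG8 and ATG12, and URM1. Of 65 listed genes 57 were in the table and 55 were tested. Among these edgeR called 0 higher, beside 8.61% of all tested genes, and 5 had an unadjusted p under 0.05 in that direction. DESeq2 and limma-voom also called 0 of them higher. Their median log2 fold change was 0.01, against 1.29 for the 5 tested members of the ISG15 system. ATG10, which conjugates ATG12, was the 1 gene called lower, beside 10.6% of all tested genes. Its log2 fold change was -1.09 (± 0.28 SE, with adjusted p = 0.0224 in edgeR's quasi-likelihood test, Benjamini-Hochberg). Its call was lost without overexpressing replicate 1 (-1.06) or without overexpressing replicate 3 (-1.10), with adjusted p values of 0.133 and 0.0981 from edgeR, in a range of 0.0079 to 0.133 over its alternatives. With no minimum fold change 4 genes were higher, beside 13.9% of all tested genes. These 4 were DCUN1D2 of the NEDD8 system (0.89), GABARAPL2 (0.73) and ATG16L1 (0.53) of autophagy, and SAE1 of the SUMO activating enzyme (0.54). Besides ATG10, the SUMO ligases PIAS3 (-0.76) and PIAS1 (-0.63) were lower on the same terms. None of these 6 genes kept an adjusted p under 0.05 without overexpressing replicate 1, where edgeR gave 0.0632 for DCUN1D2, 0.0948 for GABARAPL2, 0.197 for ATG16L1, 0.139 for SAE1, 0.111 for PIAS3 and 0.156 for PIAS1. Without overexpressing replicate 3 it was also lost for ATG16L1, SAE1, PIAS3 and PIAS1, and without control replicate 8 for PIAS1. The median was -0.04 for 15 SUMO genes, 0.17 for 12 NEDD8 genes, -0.02 for 6 UFM1 genes and -0.05 for 15 ATG8 and ATG12 genes. It was 0.25 for 4 ubiquitin genes and activating enzymes, 0.22 for 2 URM1 genes and -0.22 for 2 FAT10 genes. FAT10 itself (UBD), which like ISG15 is known as an interferon-inducible modifier, had 0 counts in all 4 libraries.

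**Figure D3:**
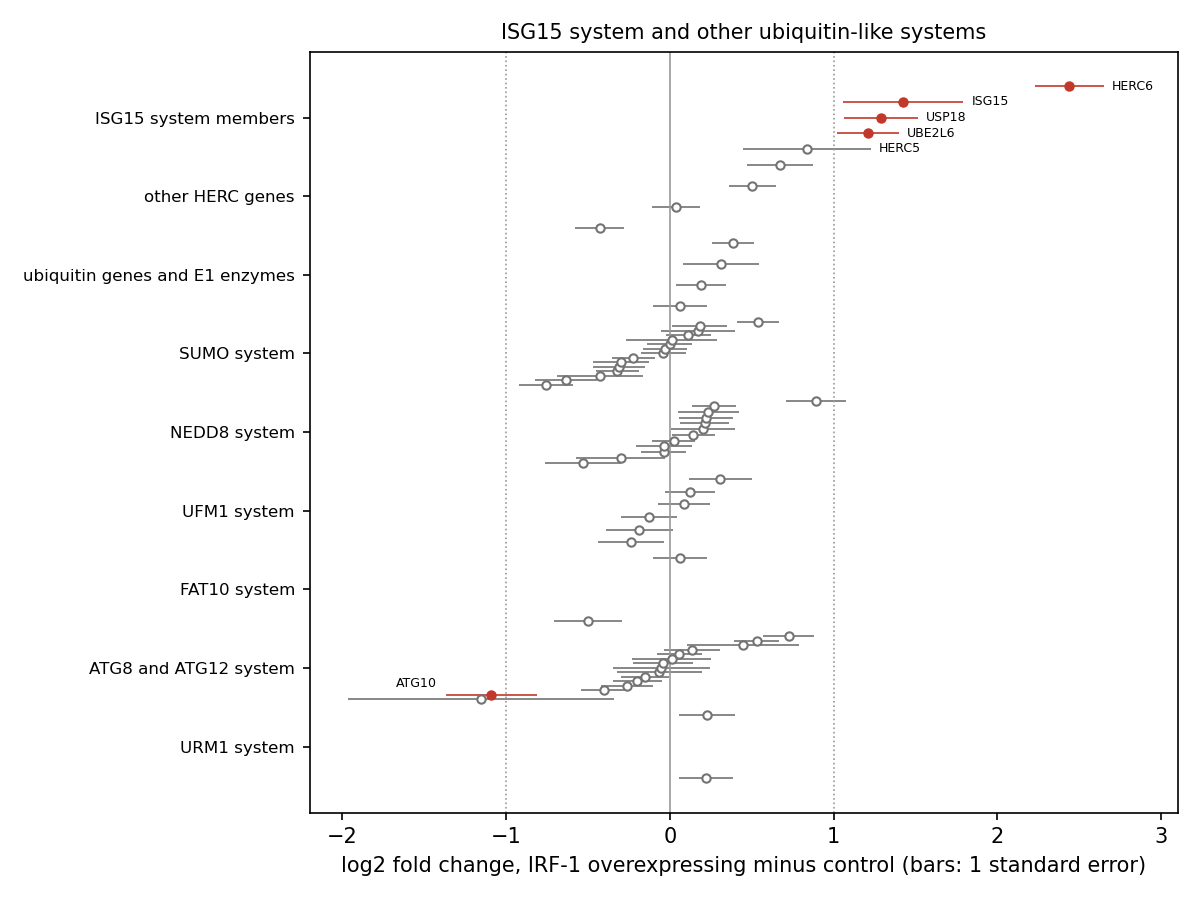
Fitted log2 fold change of each tested gene in the ISG15 system, the other HERC genes and the other ubiquitin-like systems; bars are 1 standard error, filled red points were called, and dotted lines mark a log2 fold change of 1 in either direction. The 4 called members lie between 1.21 and 2.44, and no gene of another ubiquitin-like system lies above 0.89; UBA6 is drawn with both ubiquitin and FAT10.

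Other proteins that ligate or bind ISG15 were also listed. Of 7 tested, edgeR called 0 higher, with 0 at an unadjusted p under 0.05 in that direction and 0 by DESeq2 or limma-voom, and 2 were called lower, beside 10.6% of all tested genes. ITGB2, the beta chain of LFA-1, a surface receptor for extracellular ISG15, was at 7.29 and 16.9 CPM in the overexpressing replicates and at 77.7 and 53.9 CPM in the controls. Its log2 fold change was -2.45 with a standard error of 0.38 (adjusted p = 0.00303 in edgeR's quasi-likelihood test, Benjamini-Hochberg). Without overexpressing replicate 3, its higher overexpressing library, it was at -3.17. ITGAL, for the other chain of LFA-1, had 3 and 15 counts in overexpressing replicates 1 and 3. In control replicates 6 and 8 ITGAL had 11 and 39 counts, so the groups overlapped, and it was not called. SQSTM1, an autophagy receptor, was at -1.19 (± 0.22 SE, with adjusted p = 0.00648 in edgeR's quasi-likelihood test, Benjamini-Hochberg) and at -0.87 without control replicate 6, under the fold limit. TRIM25, a ligase for ISG15, was at -0.49 and was not called. The median of the list was -0.49. Of 4 tested deubiquitinases that also take ISG15 in assays, edgeR, DESeq2 and limma-voom called 0 in either direction, with 0 at an unadjusted p under 0.05, and their median was 0.13.

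Substrates of ISG15 were listed from general knowledge, and 16 of 20 were tested. Of these 4 were higher and 1 was lower, beside 8.61% and 10.6% of all tested genes, and the median of the 16 was 0.22. The interferon-induced antiviral protein IFIT1 had 474 and 230 counts in the overexpressing replicates and 21 and 10 counts in the controls, and a log2 fold change of 3.99 (± 0.47 SE), or 4.71 without control replicate 6. The kinase JAK1, which acts below interferon receptors, was at 41.4 and 31.1 CPM in the overexpressing cells against 9.98 and 8.86 CPM in the controls, a log2 fold change of 1.95 (± 0.22 SE). Both substrates were clear of the controls in each overexpressing library. The antiviral GTPase MX1 was at 1.24 (± 0.17 SE) and the RNA-sensing kinase EIF2AK2 at 1.07 (± 0.20 SE). EIF2AK2 lost its call without overexpressing replicate 1 (0.90) or without control replicate 6 (0.88).

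Of 27 interferon genes listed, 5 had a named identifier in the table and the others were not analysed here. IFNB1 had 0 counts in all 4 libraries, a count that allows up to 0.121 to 0.192 CPM depending on the library. IFNG, IFNK and IFNE had at most 2 counts in any library, and IFN-DELTA-1 had 8 and 6 counts in the overexpressing replicates and 8 and 7 in the controls. Among the receptors IFNAR1, the partner of IFNAR2, was at 16.8 and 13.4 CPM in the overexpressing cells and 7.68 and 7.26 CPM in the controls. Its log2 fold change was 1.01 (± 0.24 SE, with adjusted p = 0.0173 in edgeR's quasi-likelihood test, Benjamini-Hochberg), and it fell under the limit without overexpressing replicate 1 (0.85) or without control replicate 8 (0.98). IFNAR2, to which USP18 binds, was at 12.5 and 8.99 CPM against 10.3 and 5.72 CPM, and the groups overlapped. IFNGR1 was at -0.53 and was not called. IFNLR1 was close to the floor with 0 and 2 counts against 9 and 10, and its call as lower was lost with DESeq2 and without overexpressing replicate 1. Of 3 tested transcription factors of the interferon response, edgeR, DESeq2 and limma-voom called 0, and 1 had an unadjusted p under 0.05 in edgeR. IRF7 and IRF9 share 93.1% and 85.2% of their exon bases with other genes, had at most 9 counts in any library and were not tested.

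The genes beside the members were taken by position, up to 2 tested genes on each side, after their values had been seen. Of 20 such neighbours 2 were called higher, 4 were called lower and 14 were not called, beside 8.61% of all tested genes called higher and 10.6% called lower. AGRN begins 589 bases after ISG15 and had a log2 fold change of -2.01, and HES4 ends 6410 bases before ISG15 and was at -4.53, both called lower. SERPING1, 14857 bases before UBE2L6, was lower at -1.72, and TIMM10 on the other side was at 0.86 and not called. Beside USP18, CPNE8 was lower at -4.41 at a distance of 166591 bases. PPM1K, the tested gene next to HERC6 on the side away from HERC5, was higher at 1.76. Its gap to HERC6 is 83096 bases. CAMKV, 39810 bases after UBA7, was the other neighbour called higher, at 1.62.

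Likeness was measured as the root mean square difference of log2(CPM + 0.5) over the 4 libraries, after each gene was centred on its own mean. The named genes with the smallest difference from ISG15 were DNAH5 (0.0168), NMT2 (0.0176) and RAB11FIP4 (0.0278). They were picked from about 11260 tested genes with a symbol, compared over only 4 libraries, and close matches are easily found among so many. The added 0.5 CPM also shrinks the differences of low genes such as ISG15. RAB11FIP4 had a fitted log2 fold change of 1.19, against 1.43 for ISG15. DNAH5 and NMT2 were, like ISG15, among low genes whose calls were lost without overexpressing replicate 1, without overexpressing replicate 3 or without control replicate 8. Their log2 fold changes were then between 1.26 and 1.61 for DNAH5 and between 1.20 and 1.52 for NMT2. Nearest to the mean pattern of the 5 tested members were PRKCE (0.0357), TAP1 (0.0362) and SIX3 (0.0493). Among the members themselves ISG15 was nearest to that mean at 0.104, and HERC6 was farthest at 0.536, followed by HERC5 at 0.403. The mean is made of these same members, so this order only tells which of them lay near the middle of the set.

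Markers of cell type differed between the groups as well, and their part in the members' differences was not tested. Mitochondrial genes took 8.62% and 7.57% of counts in overexpressing replicates 1 and 3 and 6.29% and 6.68% in control replicates 6 and 8, with no overlap. Without mitochondrial genes and the 10 most abundant genes, 4 members were again called higher. Leaving these genes out alters only the scaling and fit, so the part of the mitochondrial difference in the members' differences was not tested. Of 7 tested markers of pluripotent stem cells 4 were lower, namely ESRRB (-4.19), CDH1 (-2.25), OTX2 (-1.80) and LIN28A (-1.34), beside 10.6% of all tested genes. As background, ESRRB is known as a marker of naive pluripotency, and OTX2 and LIN28A are associated with the primed state. DNMT3B (0.27) and EPCAM (0.21) were not called, and in both genes the overexpressing libraries were above the controls. DNMT3B was at 0.03 without control replicate 6 and at 0.56 without control replicate 8, and EPCAM was at 0.13 without overexpressing replicate 3. edgeR, DESeq2 and limma-voom called 0 of them higher, with 0 at an unadjusted p under 0.05 in that direction. NANOG had between 5 and 11 counts in each library, and POU5F1 and SOX2 had no named identifier. CDH1 was at -1.66 without overexpressing replicate 1 and at -3.21 without overexpressing replicate 3, and OTX2 was at -2.44 without the latter. The summed level of this list was 1406 and 1469 CPM in the overexpressing replicates and 1761 and 1938 CPM in the controls, with DNMT3B as its most abundant gene. Among fibroblast markers PDGFRB (-5.49) and COL1A1 (-1.97) were lower, and DCN was lower with 3 and 1 counts against 19 and 19, a call lost without overexpressing replicate 3. PDGFRB was at -6.32 without overexpressing replicate 3 and at -4.79 without control replicate 6. COL1A2 was higher at 1.08, and under the limit without overexpressing replicate 1 (0.65) or without control replicate 8 (0.79). The fibroblast list summed to 143 and 87.4 CPM in the overexpressing cells and to 204 and 105 CPM in the controls. Its most abundant gene was COL1A2 in the overexpressing cells and PDGFRB in the controls, and COL6A3 and LUM had at most 3 counts in any library. Of 12 blood and immune cell markers 5 were tested and 1 was called. CD3E had 0 counts in all libraries, PTPRC had 1 count in 1 library, and AIF1 was the most abundant and lower at -2.24. This list summed to 44.2 and 35.2 CPM in the overexpressing cells and to 183 and 129 CPM in the controls.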

How the data were processed

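The RNA-seq libraries were sequenced and first analysed by a company. The submitters' processing notes name HISAT2 2.0.4, StringTie 1.3.3 and featureCounts 1.6.4, and the study's methods name Sscrofa11.1 as the genome. The values the authors deposited are raw counts, whole numbers of reads on each gene in every library, neither normalized nor pooled. The deposited table also holds other values from the annotation, namely the exon coordinates and strand of each gene and the length in bases that its exons cover. The strand setting and the treatment of reads in shared exons are not given in the sources used here, and exon sharing between genes was computed from these coordinates. The ChIP-Seq libraries were not analysed here.

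Groups were formed as the study assigns the library names, since the genotype label is the same for all 4 libraries. Replicate libraries differed beyond sampling noise, with a chi-square per degree of freedom of 17.9 between overexpressing and 31.3 between control libraries. Symbols came from the reference table for 14692 of 24358 identifiers. Counts were tested with edgeR 4.0.16 in R 4.3.3 (TMM factors between 0.982 and 1.02, filterByExpr by group, quasi-likelihood fit and test, Benjamini-Hochberg adjustment over 13250 genes, common dispersion 0.0313). Standard errors were obtained by dividing the size of a log2 fold change by the root of the F statistic. Floors cover counting error only. Alternatives were other normalizations and filters, DESeq2 1.42.0, limma-voom (limma 3.58.1), glmTreat, no minimum fold change, counts without mitochondrial genes and the 10 most abundant genes, and each library left out in turn. The scripts were tested on simulated counts. Lists, exon sharing and plots used Python 3.11.15 with matplotlib 3.10.9, numpy 2.4.6 and pandas 2.3.3.

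The genes named are IRF1, the 6 members, every gene of the lists that was called or is a close relative of a member (HERC1 to HERC4, UBE2L3, UBA1 and UBA6), and the 3 named genes most like ISG15 and most like the mean of the tested members. A few genes that meet this rule are not reported here. Other genes were named after their values were seen. The lists were written from general knowledge, and the members and lists were chosen with earlier results of these data known. A planned search for an interferon response motif in promoters was not run because no promoter sequences were used here.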

Additional observations from a re-analysis of the deposited data

How the results depend on the processing

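The count of members called higher was 4 under every other normalization and filter, with DESeq2, with limma-voom, without mitochondrial and top genes and with no minimum fold change, and 1 with glmTreat. With each library left out in turn it was between 3 and 4, and ISG15 was the member lost. Genes called higher numbered 611 and genes called lower 603 with glmTreat, and 1842 were higher with no minimum fold change. With each library left out, 756 to 1156 genes were higher and 874 to 1548 were lower, the lowest counts in both directions being without overexpressing replicate 1. The lone library of a group was then assumed to vary like the pair in the other group. The cause of these shifts was not tested, apart from the stricter test in glmTreat and the missing fold limit.

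Of 646 log2 fold changes of 54 named genes under alternatives, 621 kept their direction and side of the threshold, 21 lost the call and 1 gained it (DCUN1D2 without control replicate 6, 1.05). In 3 the sign changed. With each library left out HERC2 was between -0.069 and 0.16, with negative values without overexpressing replicate 1 and without control replicate 6. UBA6 was between -0.117 and 0.275, negative without control replicate 6, and neither was called. No paired analysis was possible because the RNA-seq groups share no replicate numbers. With the RefSeq span as its length, an alternative chosen after seeing the data, ISG15 was at 1.74 CPM per kilobase in the control and 4.68 in the overexpressing cells, since the length is shorter. Few counts limit what can be said of the interferon genes.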

Other observations

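Exon sharing was not limited to UBA7, and how reads on shared exons were treated is not given in the sources used here. Of 63 named genes whose every exon base is shared with genes on the opposite strand, 62 had 0 counts in all 4 libraries, and so did 21 of 21 whose every base is shared on the same strand. RPS27A, which encodes a ubiquitin fused to a ribosomal protein, is one of these genes. All 1326 of its exon bases lie in exons of MTIF2 on the opposite strand, and it had 0 counts in each library, while MTIF2 had between 831 and 1886. Among named genes that share some but not all bases, as UBA7 does, 3.21% of 3835 had 0 counts in all libraries. Among the 10765 named genes with no shared base it was 8.62%. IRF9, with 251 unshared bases, had 0 and 9 counts in the overexpressing replicates and 1 and 3 in the controls, and IRF7, with 217 unshared bases, had 0 and 5 counts against 3 and 0. For these interferon pathway genes a low count does not show a low level.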
